A study of Rattus norvegicus with 22 samples.

Results

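The platelet-derived growth factor (PDGF) family in the rat consists of 4 ligand genes, Pdgfa, Pdgfb, Pdgfc and Pdgfd, and 2 receptor genes, Pdgfra and Pdgfrb. These 6 of the 17310 genes listed in the count files were followed in each rat of both experiments. They were taken as a family because Pdgfra had been seen to be higher with EtOH in experiment 1 and Pdgfc in experiment 2. The family was thus chosen by these measured values, which are given as a description, without a test. The other members were not chosen for a difference of their own.

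RNA from the nucleus accumbens (NAc), a part of the ventral striatum that is studied in addiction, was sequenced in 22 adult male Wistar rats, an outbred strain. In experiment 1, 5 rats drank 6 v/v % EtOH with free choice of water for 8 weeks and 5 rats drank water only. In experiment 2, all 12 rats chose between water and 6 v/v % EtOH, first for 4 weeks and again for 2 weeks at the end, with 3 weeks of gavage in between. In the gavage weeks 6 rats received EtOH 2 times a day, each dose being 2.5 g/kg in a solution of 30 v/v %, and 6 received water. The water gavage rats are thus EtOH-drinking controls, and experiment 2 compares EtOH gavage with water gavage in rats that all drank EtOH. The paper does not say clearly whether EtOH bottles stayed available during the gavage weeks. Each library came from a separate rat.

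PDGF ligands are secreted dimers that bring receptor tyrosine kinases together at the cell surface. PDGF-A and PDGF-C act through the alpha receptor, PDGF-B acts through both receptors, and PDGF-D acts mainly through the beta receptor. PDGF-C and PDGF-D are secreted with an inhibitory CUB domain that proteases must remove, tissue plasminogen activator being one for PDGF-C. In the adult brain Pdgfra is a standard marker of oligodendrocyte precursor cells (OPCs), the dividing cells that give rise to myelinating oligodendrocytes. Pdgfrb marks pericytes and vascular smooth muscle, and Pdgfb from endothelial cells keeps pericytes on the vessel wall. In bulk tissue, fewer cells of a type and less RNA per cell cannot be told apart.

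The promoters of Pdgfra, Pdgfa and Pdgfb are shown because, in experiment 2, the levels of the latter pair moved together from rat to rat and, with all 12 rats, opposite to that of the receptor Pdgfra. Of the 6 members, 5 have an entry in the RefSeq promoter table of the GRCr8 assembly, and Pdgfrb has none. Each sequence is the 250 bases upstream of the annotated start, 5′ to 3′ on the strand of the gene, with capitals marking the GC box GGGCGG or its reverse complement CCGCCC, the letters bound by Sp1-type factors.
Pdgfra, chr14:33408517-33408766, minus strand: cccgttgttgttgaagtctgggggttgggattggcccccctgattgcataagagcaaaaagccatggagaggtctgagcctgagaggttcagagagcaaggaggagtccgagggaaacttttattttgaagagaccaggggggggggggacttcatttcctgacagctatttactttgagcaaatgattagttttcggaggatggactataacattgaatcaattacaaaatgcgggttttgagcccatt
Pdgfa, chr12:20759116-20759365, plus strand: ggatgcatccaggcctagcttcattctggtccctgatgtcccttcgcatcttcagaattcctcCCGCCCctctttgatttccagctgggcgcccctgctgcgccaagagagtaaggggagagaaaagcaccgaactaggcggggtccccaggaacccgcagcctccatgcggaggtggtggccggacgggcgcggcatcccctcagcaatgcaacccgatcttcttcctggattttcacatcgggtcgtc
Pdgfb, chr7:113438344-113438593, minus strand: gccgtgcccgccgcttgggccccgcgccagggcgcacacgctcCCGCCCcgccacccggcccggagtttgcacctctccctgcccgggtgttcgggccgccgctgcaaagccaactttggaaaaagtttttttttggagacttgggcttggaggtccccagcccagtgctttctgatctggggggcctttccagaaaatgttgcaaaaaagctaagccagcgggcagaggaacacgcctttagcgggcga
The windows of Pdgfa and Pdgfb hold 1 GC box each and that of Pdgfra holds 0. A GC box was found in 30.467% of the 33469 windows of this length in the table. The GC content was 47.2% for Pdgfra, 60.8% for Pdgfa and 63.6% for Pdgfb, with a median of 51.2% over the table. Of the remaining ligands, the Pdgfc window (GC content 56.0%) holds 0 GC boxes and the Pdgfd window (61.6%) holds 1. These matches describe letters in a window and not sites in use. With group means removed, Pdgfd had a Pearson's r of 0.0079 with Pdgfa and 0.122 with Pdgfb in experiment 2. Pdgfa and Pdgfb had an r of 0.116 in experiment 1. In experiment 2, 46.9% of tested genes had an r beyond 0.8 in size with Pdgfa, and 46.1% with Pdgfb. A link between these letters and the levels was not tested.

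Reads on genes numbered 2962291 to 5247386 per library in experiment 1 and 6713617 to 8765472 in experiment 2. Levels are given as normalized counts, that is, read counts scaled to a common library size within an experiment, and are not compared between genes, because no transcript lengths were used. In experiment 2, the 3 libraries with the highest shares of reads outside annotated genes were set apart by this rank. They were EtOH gavage replicates 1 (58.0%) and 2 (56.4%) and water gavage replicate 1 (54.5%). The next share was 52.8%, in water gavage replicate 5, so no clear gap separates the 3 libraries from the rest. The range over all 12 was 46.1 to 58.0%, against 48.4 to 51.1% in experiment 1. The first principal component, on which these 3 libraries lay at one end, took up 74.0% of the variance in experiment 2, so the differences and correlations of the members and the counts over gene lists are also given without them in that experiment, over 5 water gavage and 4 EtOH gavage rats. The 10 genes listed for striatal projection neurons were all above the filter on low counts in both experiments. So were all 10 mature oligodendrocyte genes and all 8 astrocyte genes, and passing the filter does not tell the NAc from other striatal tissue.

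In each experiment, edgeR's quasi-likelihood test covered the 8655 genes whose mean count lay over the median of those listed. In experiment 1 these included Pdgfra, Pdgfrb, Pdgfa and Pdgfb, and in experiment 2 Pdgfra, Pdgfrb, Pdgfa and Pdgfc, so 4 of 6 members passed the filter each time. Pdgfd was below it in both. With edgeR and Benjamini-Hochberg adjustment, 0 members had an FDR under 0.05 in either experiment, where 0% of all tested genes did. Without adjustment, p was under 0.05 for 0 of the 3 tested members of experiment 1 other than Pdgfra, against 5.58% of all genes, and for 0 of the 3 of experiment 2 other than Pdgfc, against 1.33% of all genes. DESeq2 also gave 0 genes under this FDR in both experiments, and p under 0.05 for 632 of 14022 genes in experiment 1 and 315 of 14110 in experiment 2.

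**Figure D1:**
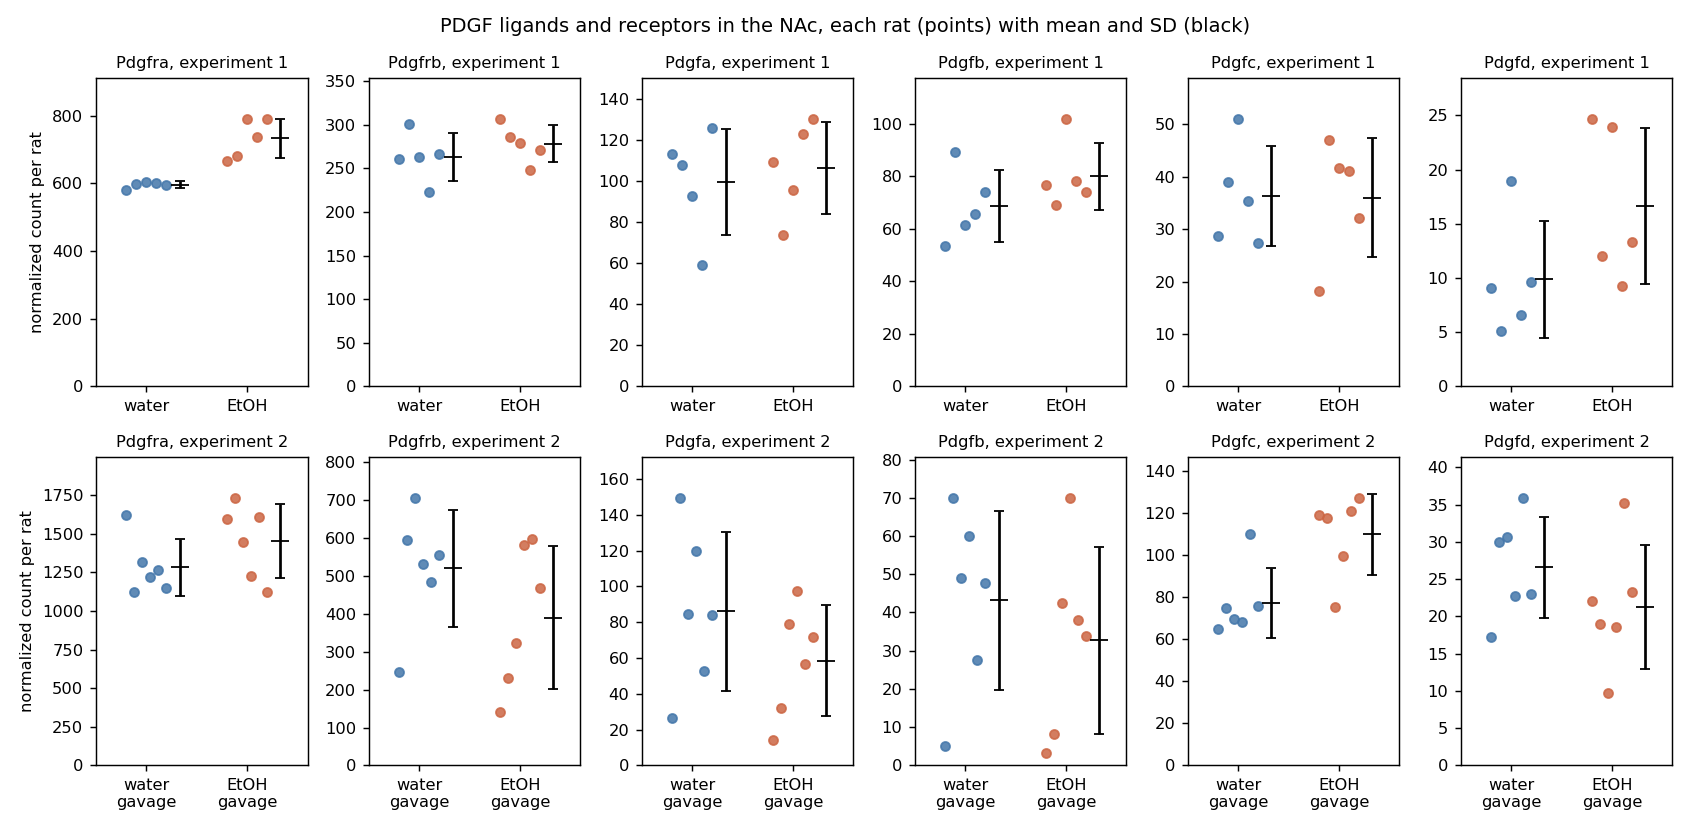
Normalized counts (y axis, from 0, scaled separately for each gene and experiment) of the 6 PDGF genes in the NAc, where each point is a rat and the black line gives the group mean and SD. In experiment 1 (top, 5 rats a group) the Pdgfra points of the water group lie between 581 and 605 and all EtOH points lie above them, from 666 to 791, while in experiment 2 (bottom, 6 rats a group) the groups of every member overlap.

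Pdgfra, the alpha receptor, was the member whose groups did not overlap in experiment 1. The 5 water rats had 581, 597, 605, 602 and 596 normalized counts, and the 5 EtOH rats had 666, 681, 789, 738 and 791. Every EtOH rat was above every water rat, as was so for 0.439% of all tested genes, while 0.843% did not overlap in either direction. The mean was 733 ± 58.6 (SD, n = 5) with EtOH and 596 ± 9.40 (SD, n = 5) with water, a log2 fold change of 0.30 (standard error, SE, 0.06). The water rats lay close together. Their coefficient of variation was 1.58%, less than the 4.14% that counting error alone gives at these read numbers, whereas the EtOH rats had 8.0% against a counting error of 3.80%.

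After gavage in experiment 2, the Pdgfra counts of the water group ran from 1122 over a median of 1241 to 1625, and those of the EtOH group from 1123 over a median of 1520 to 1734. The groups overlapped, as they did for every member in this experiment (0.0116% of all tested genes did not overlap), with water gavage replicate 1 among the highest and EtOH gavage replicates 4 and 6 among the lowest. The means were 1455 ± 239 (SD, n = 6) with EtOH gavage and 1282 ± 183 (SD, n = 6) with water gavage, a log2 fold change of 0.18 (SE 0.13) and an FDR of 0.675 in edgeR's test. The difference did not exceed the variation among rats. Without the 3 libraries the log2 fold change was 0.16 (SE 0.12).

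Pdgfrb, the beta receptor of mural cells, differed little between the groups of experiment 1. The water rats had 261, 301, 263, 223 and 266 normalized counts, and the EtOH rats had 307, 286, 279, 248 and 271. The groups overlapped, with a water rat lowest and an EtOH rat highest by a small margin over the highest water rat. EtOH and water rats differed by a log2 fold change of 0.08 (SE 0.09, edgeR FDR = 0.962).

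In experiment 2 the spread of Pdgfrb among rats was wider. The counts ran from 247 over a median of 543 to 707 with water gavage, and from 140 over a median of 396 to 596 with EtOH gavage. The 3 libraries set apart had the 3 lowest values, 140 and 230 in EtOH gavage replicates 1 and 2 and 247 in water gavage replicate 1. The coefficient of variation was 29.5% with water gavage and 48.4% with EtOH gavage, against counting errors of 4.33% and 5.11%. In experiment 1 it had been 10.5% with water and 7.67% with EtOH. The log2 fold change was -0.41 (SE 0.33, edgeR FDR = 0.675), and -0.22 (SE 0.18) without the 3 libraries.

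Among the ligands, Pdgfa encodes the A chain, which binds only the alpha receptor and drives OPC proliferation in development. In experiment 1 its normalized counts were 113, 108, 92.6, 59.1 and 126 in water rats and 109, 74.0, 95.7, 123 and 131 in EtOH rats. The groups overlapped over most of their range. The log2 fold change was 0.08 (SE 0.19, edgeR FDR = 0.988), and its sign rested on single rats, since it was -0.05 without water replicate 4 and -0.01 without EtOH replicate 5.

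In experiment 2, Pdgfa ran from 26.3 over a median of 84.5 to 150 normalized counts with water gavage and from 14.3 over a median of 64.2 to 97.4 with EtOH gavage. The lowest 3 values, 14.3, 26.3 and 32.1, were again those of the 3 libraries set apart. The log2 fold change was -0.56 (SE 0.45, edgeR FDR = 0.675), and -0.36 (SE 0.29) without these libraries. The groups overlapped in both cases.

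Pdgfb, the B chain by which endothelial cells recruit pericytes, had 53.4, 89.4, 61.3, 65.6 and 74.0 normalized counts in the water rats of experiment 1 and 76.7, 69.0, 102, 78.0 and 74.2 in the EtOH rats. The highest value was EtOH replicate 3, and 4 of the 5 EtOH rats lay within the range of the water rats. This gave a log2 fold change of 0.22 (SE 0.16, edgeR FDR = 0.914), a difference within the variation among rats.

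In experiment 2, Pdgfb was below the filter on low counts. Its normalized counts ran from 5.06 over a median of 48.3 to 69.9 with water gavage and from 3.30 over a median of 36.0 to 70.0 with EtOH gavage. Only 3, 5 and 7 reads were counted in the 3 libraries set apart, against 26 to 70 in the other 9. The mean difference of log2 CPM (CPM being reads scaled to library size) was -0.54 (exact permutation test, two-sided, p = 0.502), and -0.13 without these libraries (exact permutation test, p = 0.683). Leaving out 1 rat moved it from -0.087 without EtOH gavage replicate 1 to -1.01 without water gavage replicate 1.

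Pdgfc, a ligand of the alpha receptor that is activated by proteolysis, was below the filter in experiment 1. The water rats had 28.7, 39.1, 51.1, 35.4 and 27.4 normalized counts and the EtOH rats had 18.2, 47.0, 41.7, 41.1 and 32.1. The groups overlapped almost fully, and the lowest rat was EtOH replicate 1. The mean difference of log2 CPM was -0.04 (exact permutation test, two-sided, p = 0.889), and its sign depended on single rats, with values from -0.15 without EtOH replicate 2 to 0.17 without EtOH replicate 1 and 0.08 without water replicate 3.

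In experiment 2, where it was noted, Pdgfc ran from 64.8 over a median of 72.1 to 110 normalized counts with water gavage and from 75.4 over a median of 118 to 127 with EtOH gavage. The groups overlapped because of water gavage replicate 5, at 110, and EtOH gavage replicate 3, at 75.4, and replicate 4, at 99.6. In 4 of 6 EtOH gavage rats the count was above the highest water gavage rat, and in 6 of 6 above the water gavage median. The means were 110 ± 19.2 (SD, n = 6) and 77.1 ± 16.6 (SD, n = 6), a log2 fold change of 0.51 (SE 0.19), and 0.41 (SE 0.21) without the 3 libraries. Of these libraries, EtOH gavage replicates 1 and 2 had 119 and 118 normalized counts, within the upper part of the range, while water gavage replicate 1, at 64.8, was the lowest of the 12 rats.

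Pdgfd, a ligand of the beta receptor that also needs proteolysis, was the member with the fewest reads in experiment 1, 5 to 27 per rat. Its normalized counts were 9.12, 5.14, 19.0, 6.56 and 9.62 in water rats and 24.7, 12, 23.9, 9.24 and 13.3 in EtOH rats. The groups overlapped through water replicate 3 and EtOH replicate 4. The mean difference of log2 CPM was 0.67 (exact permutation test, two-sided, p = 0.111, where 0.00794 is the smallest p that 5 rats against 5 allow). Without water replicate 3 it was 0.90 (exact permutation test, p = 0.0317, unadjusted), so whether this difference passes 0.05 depended on 1 rat with few reads.

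In experiment 2, Pdgfd ran from 17.2 over a median of 26.4 to 35.9 normalized counts with water gavage and from 9.66 over a median of 20.5 to 35.2 with EtOH gavage. The groups overlapped, and the 3 libraries set apart lay in the middle and lower part of the range. The mean difference of log2 CPM was -0.34 (exact permutation test, p = 0.240), and -0.46 without these libraries (exact permutation test, p = 0.222). Its sign was thus opposite to that in experiment 1, and neither difference passed the test.

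**Figure D2:**
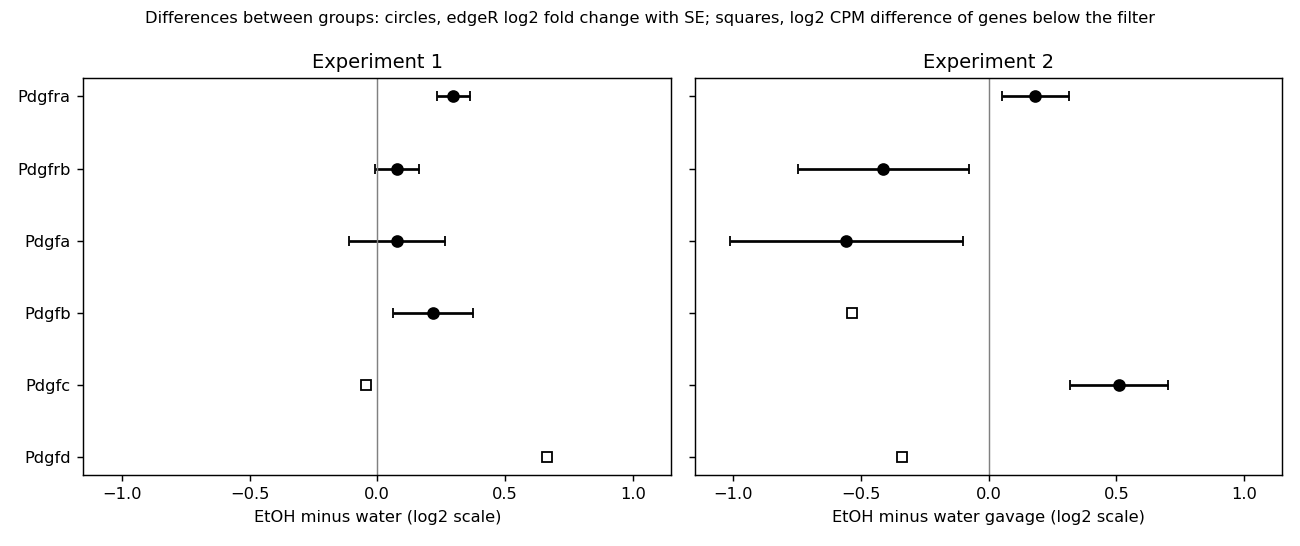
Difference between EtOH and control rats on the log2 scale (x axis) for each PDGF gene, with experiment 1 on the left and experiment 2 on the right. Circles with bars are edgeR log2 fold changes with their standard error, from -0.56 for Pdgfa in experiment 2 to 0.51 for Pdgfc in experiment 2, and squares are differences of mean log2 CPM for members below the filter, which have no bar.

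Set side by side, the members did not keep one pattern of signs across the experiments. Pdgfra was on the higher side with EtOH in both, with log2 fold changes of 0.30 and 0.18. Pdgfrb, Pdgfa and Pdgfb had values of 0.08, 0.08 and 0.22 in experiment 1 and values below 0 in experiment 2, and the differences between the experiments were not tested. The experiments also differ in library kit, read length, depth and control group. As levels, Pdgfra had a mean of 157 CPM in water rats and 193 CPM in EtOH rats of experiment 1, and 169 and 192 CPM with water and EtOH gavage in experiment 2. Pdgfc had 9.57 and 9.49 CPM in experiment 1, and 10.2 and 14.5 CPM in experiment 2. Pdgfb had 18.1 and 21.1 CPM in experiment 1, and 5.69 and 4.31 CPM in experiment 2.

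Within the groups of experiment 2, the level of 3 members followed the share of reads outside annotated genes. With group means removed, the log2 CPM of Pdgfa had a Pearson's r of -0.941 with this share across the 12 rats (permutation p = 8.0e-05) and a Spearman's rho of -0.874 (permutation p = 0.00112). For Pdgfb, r was -0.938 (permutation p = 3.0e-05) and rho -0.867 (p = 0.0010). For Pdgfrb, r was -0.898 (permutation p = 0.00011) and rho -0.888 (p = 0.00037). Adjusted over the 12 relations computed, the p-values of r were 0.00044, 0.00036 and 0.00044. The relations with this share were not planned and were computed after the data had been seen, so their p-values are a description. The relations held when the 2 rats with the most extreme shares were left out, with r of -0.900, -0.869 and -0.783, and r was -0.808, -0.811 and -0.543 without the 3 libraries (permutation p = 0.0369, 0.0114 and 0.0403, unadjusted).

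Pdgfra went the other way, with an r of 0.669 (permutation p = 0.030, adjusted p = 0.0900) and a rho of 0.573 (p = 0.0723). Its r was 0.532 without the 2 most extreme rats and 0.159 without the 3 libraries. The relation of Pdgfra thus did not pass the adjustment and rested on those libraries. For Pdgfc, r was 0.247 (permutation p = 0.455, adjusted p = 0.758) with a rho of 0.0629 (p = 0.855), and for Pdgfd it was -0.179 (permutation p = 0.613, adjusted p = 0.817) with a rho of -0.322 (p = 0.336). In experiment 1, where the share hardly varied, r lay between -0.389 and 0.356 for the 6 members, with adjusted p-values of at least 0.704. Strong correlations were common among all genes of experiment 2. The correlation of Pdgfa with the tested genes had a median size of 0.781, and 46.9% of them had an r beyond 0.8 in size. The medians were 0.779 for Pdgfb, 0.730 for Pdgfrb, 0.560 for Pdgfra, 0.312 for Pdgfc and 0.175 for Pdgfd.

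**Figure D3:**
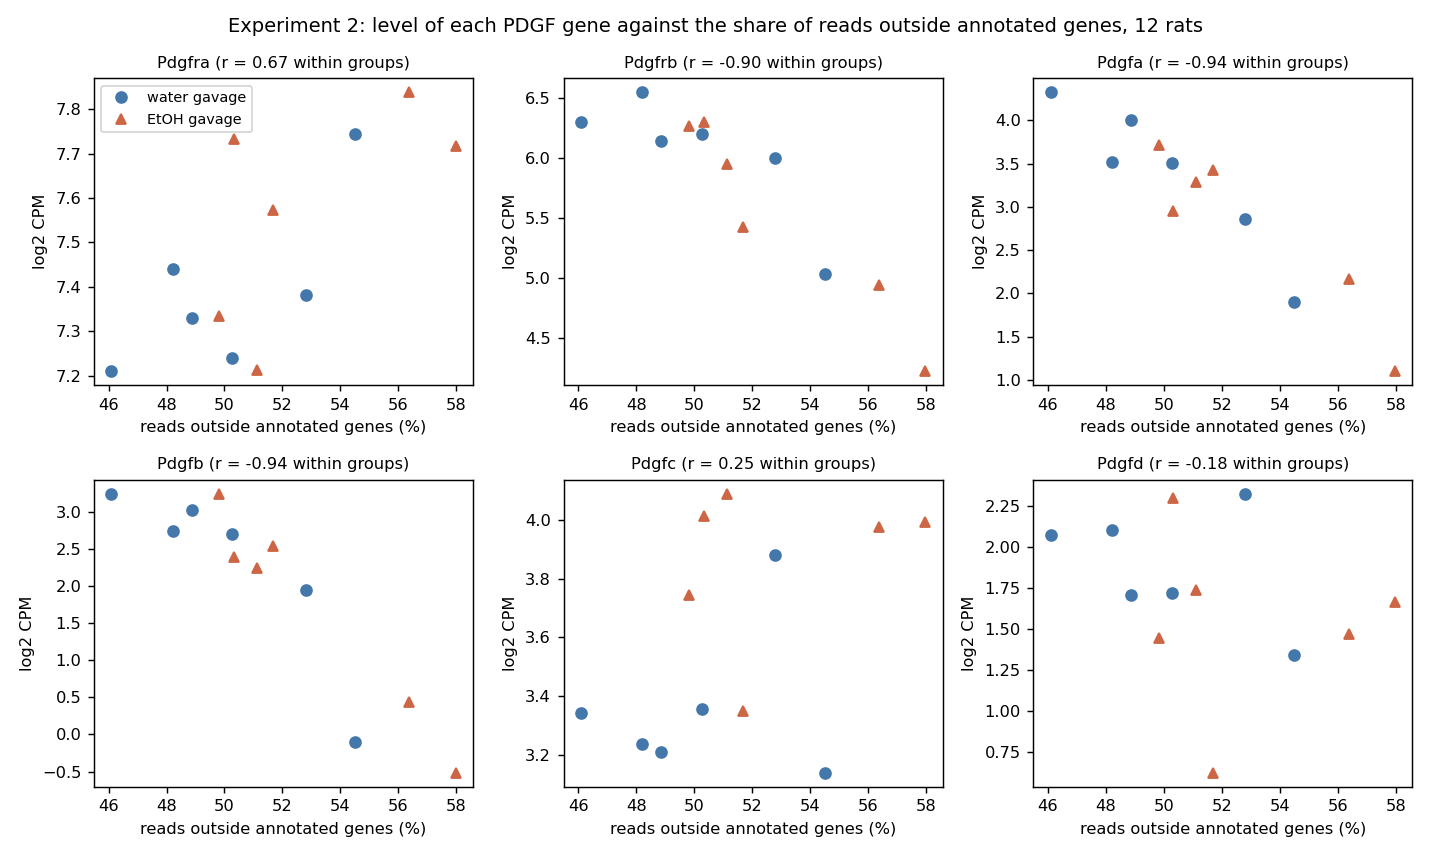
Level of each PDGF gene (y axis, log2 CPM) against the share of reads outside annotated genes (x axis, percent) in the 12 rats of experiment 2, with circles for water gavage and triangles for EtOH gavage. Pdgfrb, Pdgfa and Pdgfb fall along the axis (r of -0.90, -0.94 and -0.94 with group means removed), Pdgfra lies higher at high shares (r of 0.67), and Pdgfc and Pdgfd show little relation.

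Some members varied together across the rats of experiment 2. Pdgfa and Pdgfb, the classical chains whose promoters are printed above, had an r of 0.972 with each other (rho 0.972, n = 12). Without the 3 libraries set apart their r was 0.908 (n = 9). The protease-activated ligands Pdgfc and Pdgfd had an r of 0.794 with each other (rho 0.769), and 0.796 without these libraries. The relations of the receptors with Pdgfa and Pdgfb were weaker without the 3 libraries. Pdgfrb had r of 0.851 with Pdgfa and 0.917 with Pdgfb over all rats, and of 0.0944 and 0.344 without them. Pdgfra had r of -0.744 with Pdgfa and -0.742 with Pdgfb, and of -0.454 and -0.269 without them. Some other pairs, picked after their values were seen, were larger in size without these libraries. Pdgfc went from -0.265 to -0.625 with Pdgfa and from -0.180 to -0.630 with Pdgfb, and Pdgfrb from 0.385 to 0.671 with Pdgfd. In experiment 1, Pdgfa and Pdgfb had an r of 0.116, Pdgfc and Pdgfd an r of -0.145, and no pair exceeded 0.393 in size (n = 10). These coefficients come from libraries that share depth and composition and are given as a description.

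The genes whose levels ran most like those of each member in both experiments were sought among all genes above the filter in both, by the lower of the r values of the experiments with group means removed. For Pdgfra these were Spire1 (r of 0.897 in experiment 1 and 0.835 in experiment 2), Lrrc58 (0.865 and 0.777) and Ahnak (0.777 and 0.790). For Pdgfrb they were Cdc42ep1 (0.895 and 0.926), Erf (0.867 and 0.891) and Rpl11 (0.940 and 0.864). Pdgfa was most like Tbc1d9b (0.911 and 0.908), Atp6v1f (0.906 and 0.926) and Prelid1 (0.892 and 0.959). Each list of genes comes from 10 and 12 rats and 8176 candidates, so these are the highest of many coefficients. Without the 3 libraries, r in experiment 2 was 0.692, 0.511 and 0.816 for the genes most like Pdgfra, in the order given. It was 0.553, 0.592 and 0.437 for those of Pdgfrb and 0.750, 0.768 and 0.863 for those of Pdgfa.
Pdgfb was most like Gltscr1 (r of 0.901 and 0.905), Rpn2 (0.919 and 0.899) and Rgs19 (0.877 and 0.927). Pdgfc was most like RGD1565616 (0.783 and 0.848), Fam185a (0.779 and 0.763) and Hspa5 (0.840 and 0.753), the last a chaperone of the endoplasmic reticulum. Pdgfd was most like Cd48 (0.744 and 0.672), Fam198b (0.646 and 0.684) and Amotl2 (0.777 and 0.611). In the same order and without the 3 libraries, r in experiment 2 was 0.580, 0.565 and 0.741 for the genes of Pdgfb, 0.863, 0.873 and 0.781 for those of Pdgfc, and 0.661, 0.653 and 0.902 for those of Pdgfd.

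Each receptor, and the endothelial ligand Pdgfb, was also compared with a marker list for the cells that are known for it, again with group means removed. The OPC list and the pericyte and smooth muscle list share the gene Cspg4, which entered both scores. Pdgfrb followed the mural markers closely in experiment 2. Its r with the mean score of 7 pericyte and smooth muscle genes was 0.965 (permutation p = 3.0e-05, adjusted p = 0.00018 over 6 relations) and its rho was 0.965 (p = 1.0e-04). All 7 markers had a positive r, from 0.426 for Abcc9 to 0.928 for Tagln, which were chosen after their values were seen. Without the 2 most extreme rats r was 0.935, and without the 3 libraries it was 0.909 (permutation p = 0.00116). The mural markers themselves had r of -0.193 to -0.959 with the share of reads outside genes, and the part of that share in the relation was not tested. High coefficients with Pdgfrb were common in experiment 2. Of the 8654 other tested genes, 20.1% had an r over 0.8 with it, and 37% had an r beyond 0.8 in size. The relation to the mural score was not tested against this background. In experiment 1, Pdgfrb had an r of -0.221 with these markers (permutation p = 0.520, adjusted p = 0.623) and a rho of -0.297 (p = 0.416). Its r was -0.031 without the 2 most extreme rats.

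Pdgfra had no positive relation to the other OPC markers that passed a test. Its r with the score of 9 OPC genes was 0.055 in experiment 1 (permutation p = 0.919, adjusted p = 0.919), with a rho of -0.042 (p = 0.927), and r was -0.075 without the 2 most extreme rats. Single EtOH rats decided this value, which was -0.714 without EtOH replicate 5 and 0.644 without EtOH replicate 3. In experiment 2, r was -0.659 with 8 OPC genes (permutation p = 0.0328, adjusted p = 0.0656), with a rho of -0.629 (p = 0.0457). It was -0.626 without the 2 most extreme rats and -0.333 without the 3 libraries (permutation p = 0.573). It passed the adjustment when water gavage replicate 6 (r = -0.730) or EtOH gavage replicate 6 (r = -0.768) was left out. Of the 8 markers, 2 had an r above 0 with Pdgfra, Ptprz1 with 0.604 and Vcan with 0.596. The other 6 had r from -0.451 to -0.823, among them Bcan, which like Ptprz1 and Vcan encodes a proteoglycan, with -0.626, and Gpr17, a receptor of committed precursors, with the lowest. Ptprz1, Vcan and Gpr17 are singled out after their values were seen. Ptprz1 and Vcan also had a positive r with the share of reads outside genes in experiment 2, 0.812 and 0.897. The other 6 markers had r of -0.394 to -0.945 with that share. The part of the share in the relation of Pdgfra to these markers was not tested.

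Pdgfb had an r of 0.686 with the score of 8 endothelial genes in experiment 2 (permutation p = 0.0196, adjusted p = 0.0588), with a rho of 0.587 (p = 0.0548). It was 0.647 without the 2 most extreme rats and 0.216 without the 3 libraries. Leaving out water gavage replicate 6 (r = 0.770) or EtOH gavage replicate 6 (r = 0.733) brought it past the adjustment. In experiment 1, r was 0.306 with 7 endothelial genes (permutation p = 0.450, adjusted p = 0.623), with a rho of 0.430 (p = 0.256), and r was 0.628 without the 2 most extreme rats.

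**Figure D4:**
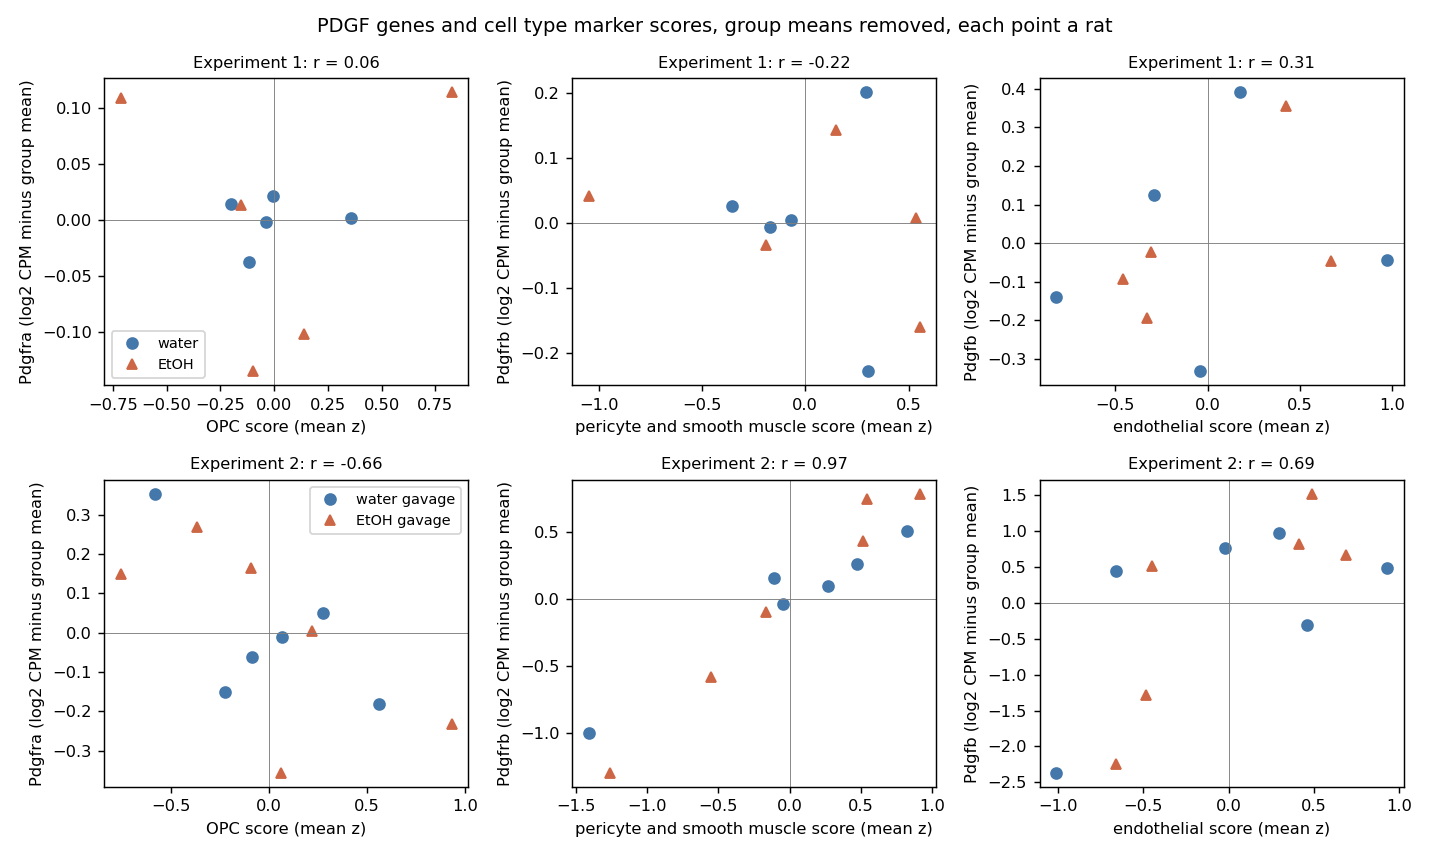
Levels of Pdgfra, Pdgfrb and Pdgfb (y axis, log2 CPM minus the group mean) against the mean z score of the OPC, the pericyte and smooth muscle, and the endothelial markers (x axis, group means removed), where each point is a rat and experiment 1 is above experiment 2. In experiment 2, Pdgfrb rises with the mural score (r of 0.97) while Pdgfra lies lower at high OPC scores (r of -0.66), and in experiment 1 none of the 3 relations is close.

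Beside the higher Pdgfra of experiment 1, the OPC markers gave the following values. Of the 9 tested, 6 were higher and 3 lower with EtOH, with a median log2 fold change of 0.03 against -0.0012 over all tested genes, and 0 passed the FDR or an unadjusted p under 0.05. Over all tested genes, 49.5% were higher with EtOH in experiment 1 and 50.1% in experiment 2. Ptprz1 had a log2 fold change of -0.07 (SE 0.07), Bcan of 0.02 with 0.06, and Olig1 of 0.07 with 0.09. The summed level of the OPC list was 1689 to 1966 CPM in water rats and 1706 to 1985 CPM in EtOH rats. Ptprz1 weighed most in this sum, with a mean of 3678 normalized counts against 1624 for Bcan, the next. In experiment 2, where Pdgfra had a value of 0.18, 6 of 8 OPC markers were lower, with a median of -0.46. The summed level of the list was 1266 to 1502 CPM with water gavage and 1040 to 1797 CPM with EtOH gavage. There Ptprz1 had a mean of 7678 normalized counts, against 1066 for Bcan, so the sum mainly followed Ptprz1. Mature oligodendrocyte markers were split, with 5 of 10 higher in experiment 1 (median 0.0016) and 3 of 10 in experiment 2 (median -0.13), and 0 passed the FDR.

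Markers of vessels, where Pdgfrb and Pdgfb are found, were mostly on the higher side in experiment 1 and on the lower side in experiment 2, as were these members. Of 7 pericyte and smooth muscle genes tested, 6 were higher in experiment 1 (median log2 fold change 0.15) and 2 in experiment 2 (median -0.30). Cspg4 is among them and also in the OPC list, so it is counted in both. Of the endothelial genes, 7 of 7 were higher in experiment 1 (median 0.09) and 1 of 8 in experiment 2 (median -0.34). None of them had an FDR under 0.05 (edgeR). Unadjusted p was under 0.05 in experiment 1 for 2 of 7 mural genes, Tagln and Myh11, both of the contractile apparatus of smooth muscle. It was so for 1 of 7 endothelial genes, the tight junction gene Cldn5, against 5.58% of all tested genes. The summed mural level was 269 to 298 CPM in water rats and 268 to 347 CPM in EtOH rats of experiment 1, and 127 to 288 and 106 to 298 CPM with water and EtOH gavage. The summed endothelial level was 332 to 429 and 391 to 429 CPM in experiment 1, and 211 to 342 and 181 to 281 CPM in experiment 2. Fibroblast markers, which mark the meninges and large vessels, were higher for 2 of 2 genes tested in experiment 1 (median 0.58) and for 4 of 4 in experiment 2 (median 0.72), with 0 past the FDR and Col1a2 at 0 reads in every rat. Unadjusted p was under 0.05 for Col1a1 in experiment 1 (log2 fold change 0.64, SE 0.28). The summed fibroblast level was 77.5 to 105 CPM in water rats and 83.1 to 232 CPM in EtOH rats of experiment 1, and 45.8 to 118 and 46.5 to 455 CPM with water and EtOH gavage. In each EtOH group 1 rat held the high value. This was EtOH replicate 3 in experiment 1, where the other 4 rats had 83.1 to 108 CPM, and EtOH gavage replicate 5 in experiment 2, where the other 5 had 46.5 to 59.6 CPM. The part of these markers in the values of the members was not tested.

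Other cell types that a NAc dissection can hold had the following values, with 0 genes past the FDR in each list (edgeR). Striatal projection neuron markers were lower for 9 of 10 genes in experiment 1 (median log2 fold change -0.26) and for 6 of 10 in experiment 2 (median -0.27), with summed levels of 3265 to 5763 and 2932 to 5857 CPM in experiment 1 and of 4804 to 9072 and 4618 to 6566 CPM in experiment 2. Unadjusted p was under 0.05 for 1 of 10 genes in each experiment. These were the dopamine receptor gene Drd1 in experiment 1 (log2 fold change -0.50, SE 0.17) and the adenosine receptor gene Adora2a in experiment 2 (-0.54, SE 0.24). The shares over all tested genes were 5.58% and 1.33%. Neuroblast markers, which mark the migrating young neurons of the adult subventricular zone, were higher for 3 of 4 genes in both (medians 0.47 and 0.22). In experiment 1, p was under 0.05 without adjustment for Dcx, Dlx1 and Cd24. These 3 were already known from the published analysis of the same rats to rank near the top of that contrast. Their values in experiment 1 are therefore a description and not a test. The remaining marker, Tubb3, had a log2 fold change of -0.0054 (SE 0.07) there. The summed level of the neuroblast list was 526 to 672 CPM in water rats and 639 to 769 CPM in EtOH rats of experiment 1. Tubb3 weighed most in this sum, with a mean of 1329 normalized counts against 645 for Dcx, the next. In experiment 2 the summed level was 275 to 597 and 357 to 439 CPM, where Dcx had a mean of 1345 normalized counts and Tubb3 of 1134. Astrocyte markers were higher for 6 of 8 genes (median 0.01) and 4 of 8 (median -0.04), and microglia markers for 2 of 7 in both (medians -0.04 and -0.55). Without the 3 libraries, the genes on the higher side in experiment 2 numbered 1 of 8 for OPCs (median log2 fold change -0.32), 1 of 10 for mature oligodendrocytes (-0.20), 2 of 7 for pericytes and smooth muscle (-0.21), 1 of 8 for the endothelium (-0.20) and 4 of 4 for fibroblasts (0.95). They numbered 1 of 10 for projection neurons (-0.34), 2 of 4 for neuroblasts (0.14), 1 of 8 for astrocytes (-0.04) and 1 of 7 for microglia (-0.39), against a median of -0.02 over all tested genes. The part of these cell types in the Pdgfra and Pdgfc values was not tested.

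Downstream of the receptors, the pathway was examined in a list of 43 genes for ligand-cleaving proteases, adaptors, kinases, phosphatases and binding partners. In experiment 1, 38 were tested, of which 20 were higher and 18 lower with EtOH and 0 passed the FDR (edgeR), with a median log2 fold change of 0.0047. In experiment 2, 39 were tested, with 18 higher, 21 lower and 0 past the FDR, and a median of -0.02. Unadjusted p was under 0.05 for 1 of 38 genes in experiment 1, the docking protein Gab1, at a log2 fold change of 0.22 (SE 0.10). In experiment 2 it was so for 1 of 39, Cblb, a ubiquitin ligase that acts on activated receptors, at 0.36 (SE 0.15). Over all tested genes the shares were 5.58% in experiment 1 and 1.33% in experiment 2.
The genes of the pathway list with the most counts were also examined. In experiment 1, Lrp1, a co-receptor of PDGFRβ, had a log2 fold change of -0.02 (SE 0.06), Sparc, a matrix protein that binds PDGF-B, 0.0026 with 0.12, the phosphatase Ptpn11 -0.07 with 0.07, and the kinase Map2k1 -0.11 with 0.07. In experiment 2 the values were -0.66 with 0.48 for Lrp1, -0.23 with 0.18 for Sparc, 0.05 with 0.17 for Ptpn11 and -0.05 with 0.09 for Map2k1. Without the 3 libraries 17 of 39 pathway genes were higher (median -0.03, 0 past the FDR), Lrp1 was at -0.41 with 0.33 and Cblb at 0.30 with 0.18, where its unadjusted p no longer passed 0.05. The related receptors and ligands of the PDGF and VEGF families had 5 of 9 genes higher in experiment 1 (median 0.04) and 1 of 8 in experiment 2 (median -0.25, and 0 of 8 with a median of -0.21 without the 3 libraries), with 0 past the FDR. In experiment 1, 1 of the 9, the VEGF receptor Flt1, was under an unadjusted p of 0.05, as were 5.58% of all tested genes.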

How the data were processed

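The NAc of 22 rats was sequenced, with groups and replicates as the labels give them. The authors aligned reads with TopHat2 2.0.13 to Rnor_6.0 (rn6), assigned them to genes with HTSeq 0.5.3p3 or 0.6.0 (versions from the submitters' processing notes) and deposited raw read counts per gene, without normalization. Counting options and the annotation release are not given in the sources used here. The kit was strand-specific in experiment 2 and not in experiment 1. The counts leave out reads with several alignments. The 5 summary lines were kept out of library sizes and tests.

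Each experiment had its own fit of the counts, with TMM scaling in edgeR 4.0.16 under R 4.3.3, using glmQLFit and glmQLFTest at default arguments (the legacy mode in this version), over genes with a base mean over the median of 17310 genes (43.6 in experiment 1, 66.4 in experiment 2), with Benjamini-Hochberg adjustment. Members below the filter were compared as log2 CPM (prior count 2) with exact two-sided permutation tests. Correlations across rats used deviations from group means and 100000 permutations within groups, whose smallest p is 1e-05. No 2 libraries of a group agreed within sampling noise.

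The members, marker lists and pathway list were chosen with earlier results of these data known. Named were all members, the 3 genes most like each, and up to 4 genes of a list in the order of mean count. Cspg4 was named because it is in both the OPC list and the pericyte and smooth muscle list. Any other gene named (those under an unadjusted p of 0.05 and the markers with extreme r) was chosen after its values were seen. Alternatives were DESeq2 1.42.0, its size factors in edgeR, the newer mode of glmQLFit, other filters and prior counts, all groups in one fit, the first principal component as a covariate, the replicate number as a block, Spearman's rho and each rat left out. The relations with the share of reads outside genes were chosen after seeing the data. So was leaving out the 3 libraries, and the 2 rats with extreme shares.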

Additional observations from a re-analysis of the deposited data

Results flagged for a closer look

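Groups were scanned for a single rat far from the others, over the 6 members, the reads on genes and the share of reads outside annotated genes. Of 32 groups, 2 were picked out, where chance picks about 1.6. For Pdgfb in the EtOH group of experiment 1, replicate 3 had 102 normalized counts (101.92) against 69.0 to 78.0 in the other rats, with a gap of 0.727 of the range of its group. For Pdgfc in the water gavage group of experiment 2, replicate 5 had 110 normalized counts (109.94) against 64.8 to 75.6, a gap of 0.759. Without the former rat, the log2 fold change of Pdgfb in experiment 1 was 0.11, and without the latter that of Pdgfc in experiment 2 was 0.63.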

How the results depend on the processing

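Of 393 recomputed values, 375 were rated unchanged, 12 changed sign and 6 came to pass a threshold they had missed. For tested values, unchanged means the same direction and side of the threshold. For the counts of genes and members it means a count of 0. For Pdgfra in experiment 1 and Pdgfc in experiment 2, which were not tested, it means a shift smaller than the SD among rats within groups. The count of members and of genes at an FDR under 0.05 was 0 in every fit. The log2 fold change of Pdgfra in experiment 1 lay between 0.25 and 0.33 and that of Pdgfc in experiment 2 between 0.41 and 0.63 under all alternatives. With the first principal component as a covariate, Pdgfa was at -0.032 in experiment 1 and 0.00032 in experiment 2, Pdgfb in experiment 1 at 0.03, and in experiment 2 Pdgfrb at -0.08 and Pdgfra at 0.08. When single rats were left out, Pdgfa in experiment 1 ranged from -0.048 to 0.18, Pdgfc in experiment 1 from -0.15 to 0.17 and Pdgfd in experiment 1 from 0.51 to 0.90. The relation of Pdgfra to the OPC markers in experiment 1 was -0.075 without the 2 rats farthest from the median score, -0.042 as Spearman's rho, and -0.714 to 0.644 with single rats left out. In experiment 2 it was -0.758 with DESeq2's size factors (adjusted p = 0.0255) and -0.768 to -0.573 with single rats left out, where that of Pdgfb to the endothelial markers was 0.565 to 0.770. Without the 2 rats with extreme shares of reads outside genes, r with this share in experiment 1 was 0.062 for Pdgfb and 0.404 for Pdgfd. The cause of these changes was not tested.

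Rats with the same replicate number were not taken as pairs, and the labels give no pairing. The correlation of their deviations was over 0.1 for 1 of 5 pairs in experiment 1 and for 4 of 6 in experiment 2. In experiment 2 it ran from -0.759 to 0.835. In experiments 1 and 2, 2 of 10 and 1 of 12 rats correlated best with their own number. These values do not settle whether the rats of experiment 2 were paired. With the number as a replicate block, 0 members and 0 genes passed the FDR in either experiment. The log2 fold change was then 0.30 for Pdgfra, 0.08 for Pdgfrb, 0.09 for Pdgfa and 0.22 for Pdgfb in experiment 1, and 0.18 for Pdgfra, -0.51 for Pdgfrb, -0.56 for Pdgfa and 0.51 for Pdgfc in experiment 2. Genes with an unadjusted p under 0.05 numbered 476 with the block and 483 without it in experiment 1, and 414 and 115 in experiment 2. Levels between members were not computed per length, so another scaling of them was not run. Pdgfd, Pdgfc in experiment 1 and Pdgfb in experiment 2 have few reads, which limits the differences that could be detected at this depth.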
